A study of Mus musculus with 4 samples.

Results

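The transcripts of 10 genes for histone H3 lysine 9 (H3K9) methyltransferases and their readers were examined by bulk RNA-seq of wild-type (WT) and Kdm3b heterozygous (Kdm3b+/-) mice. The tissue was the vermis of the cerebellum, dissected so as to be granule-cell-enriched (GCE). The genes were taken by name, as the known writers and readers of this mark, with earlier results of these data known. They were found by gene identifier among the 24532 identifiers of the deposited tables, and all 10 were present with 1 entry each. The set holds 6 writer genes (Ehmt1, Ehmt2, Setdb1, Setdb2, Suv39h1 and Suv39h2), 3 genes for heterochromatin protein 1 (HP1) readers (Cbx1, Cbx3 and Cbx5) and the corepressor gene Trim28.

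There were 2 WT and 2 Kdm3b+/- mice, with 1 library per mouse. All were adult males and littermates, on a C57Bl/6N background that was later crossed to C57Bl/6J. The Kdm3b+/- mice carried a gene trap vector in 1 Kdm3b allele in every cell, since the mutation is in the germ line and is not driven by a Cre. The labels name the tissue as cerebellum, and the study's methods describe GCE tissue that was cut by hand from slices of the vermis. Expression is given as TPM, a transcript abundance that is scaled to gene length and library total. A TPM value is a share of its library, so differences between libraries also depend on the scaling chosen.

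H3K9 methylation is a mark of silent chromatin. EHMT1 and EHMT2 (GLP and G9a) form a pair that places mono- and dimethylation, chiefly in euchromatin. SUV39H1 and SUV39H2 place trimethylation at pericentromeric repeats, and SETDB1 is brought by TRIM28 and KRAB zinc finger proteins to retroelements. The HP1 proteins bind methylated H3K9 through a chromodomain and recruit further writers. KDM3B acts in the opposite direction, as a demethylase of mono- and dimethylated H3K9. The comparison asks whether the transcripts of the writers and readers differ in the tissue of mice with 1 trapped allele of this eraser.

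Between 4.92 and 6.69 gigabases were aligned per library. Kdm3b, the trapped gene, had 9.10 and 11.0 TPM in the WT mice and 8.30 and 7.90 TPM in the Kdm3b+/- mice. Both mutant values lay below both WT values, with a log2 fold change of -0.27 (SE 0.17) and an adjusted p of 0.424 (limma). It was -0.13 after the length and GC correction described further on, and between -0.40 and -0.15 with 1 mouse left out. The tables sum a whole gene, so they cannot show whether the trapped allele yields shortened RNA. Markers of granule cells summed to 3300 and 4032 TPM in the WT mice and 3557 and 3469 TPM in the Kdm3b+/- mice. The tissue also held oligodendrocyte markers at 14758 to 17617 TPM. Purkinje cell markers summed to 1690 TPM in WT mouse 1 and to 762, 939 and 778 TPM in WT mouse 2 and Kdm3b+/- mice 1 and 2, so that 1 WT library stood apart. All 10 Purkinje markers had a lower mean in Kdm3b+/- mice. The median of their log2 fold changes was -0.50, beside -0.07 for all 13652 genes tested, of which 8250 were lower. Of 5 red cell genes, 3 were higher in both mutants and 1, Hbb-bs, was lower in both. All 4 had an unadjusted p under 0.05 by limma, as had 17.0% of all genes tested. Among all genes tested, 19.2% were higher in both mutants and 32.0% were lower in both. The part of these cell types in the values of the 10 genes was not tested. In bulk tissue, fewer cells of a type and less RNA per cell cannot be told apart.

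No writer or reader gene passed the test between genotypes. Differentially expressed (DEX) genes were those whose adjusted p was under 0.05 and whose fold change exceeded 1.2. By this rule 0 of the 10 genes were DEX by limma, and 0 had an unadjusted p under 0.05. Over all 13652 genes tested, 0.461% were DEX and 17.0% had an unadjusted p under 0.05. The mean was lower in Kdm3b+/- mice for 8 of the 10 genes, and their median log2 fold change was -0.14, beside -0.07 for all genes tested. Of all 13652 genes tested, 8250 had a log2 fold change below 0. In 2 genes, Cbx1 and Cbx5, both Kdm3b+/- mice lay above both WT mice, and in 4 genes, Setdb2, Suv39h1, Suv39h2 and Trim28, both lay below. Such a separation in either direction was found for 51.3% of all genes tested, upward for 19.2% and downward for 32.0%, so it is common with 2 mice in each group. The 95% intervals of all 10 genes included no change and also reached past a 1.2-fold difference (0.26 on the log2 scale). The data therefore leave room for differences of that size.

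**Figure D1:**
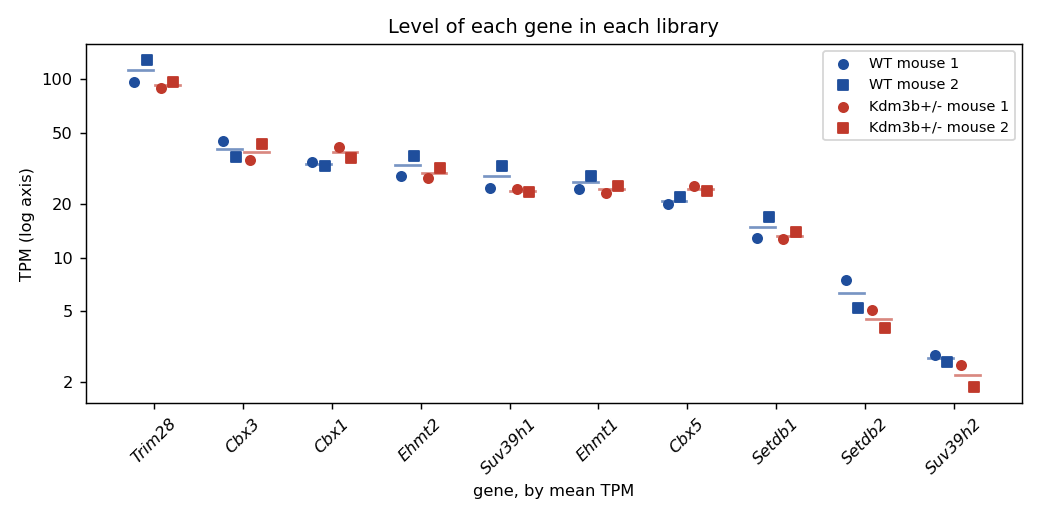
TPM of the 10 genes in each library on a log axis, ordered by mean TPM, with circles for mouse 1, squares for mouse 2 and a short line for the mean of each genotype. Trim28 lies highest in every library and Suv39h2 lowest, and both Kdm3b+/- values lie above both WT values for Cbx1 and Cbx5.

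The 10 genes covered a wide range of levels. Trim28 was the most abundant at a mean of 102 TPM over the 4 libraries. Cbx3 at 40.0 TPM, Cbx1 at 36.2 TPM, Ehmt2 at 31.4 TPM, Suv39h1 at 26.1 TPM, Ehmt1 at 25.2 TPM and Cbx5 at 22.6 TPM formed a middle group. Within this group, the ranges of next neighbours over the 4 libraries overlapped, although Ehmt2 lay above Suv39h1 in 4 of 4 libraries. Genes farther apart in the order did not always overlap, as Cbx3 (35.0 to 44.8 TPM) and Cbx5 (19.9 to 25.1 TPM) show. Setdb1 followed at 14.1 TPM, Setdb2 at 5.45 TPM and Suv39h2 at 2.47 TPM, and the ranges of these last genes did not overlap with each other or with that of Cbx5. In each pair of related trimethylating enzymes, 1 gene was thus the main transcript. Suv39h1 exceeded Suv39h2 by 8.59 and 12.5 times in the WT mice and by 9.61 and 12.3 times in the Kdm3b+/- mice. Setdb1 exceeded Setdb2 by 1.71 and 3.23 times in the WT mice and by 2.51 and 3.45 times in the Kdm3b+/- mice. The Ehmt2 to Ehmt1 ratio was much more even, at 1.19 and 1.31 in WT and 1.21 and 1.26 in Kdm3b+/- mice. In all 3 ratios the genotypes overlapped.

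The dimethylating pair comes first, since its product is the substrate of KDM3B. Ehmt1 (gene 77683, chr2:24790769-24919609, minus strand) had 24.2 and 28.5 TPM in the WT mice and 22.9 and 25.2 TPM in the Kdm3b+/- mice. WT mouse 2 was highest and the groups overlapped. Kdm3b+/- over WT gave a log2 fold change of -0.12 (SE 0.15; 95% interval -0.47 to 0.23), with an adjusted p of 0.713 by limma. Ehmt2 (gene 110147, chr17:34898492-34914050, plus strand) had 28.8 and 37.2 TPM in the WT mice and 27.8 and 31.7 TPM in the Kdm3b+/- mice. Again WT mouse 2 was highest and the groups overlapped. The log2 fold change was -0.14 (SE 0.17; 95% interval -0.52 to 0.24), with an adjusted p of 0.705 by limma. The 2 genes summed to 53.0 and 65.7 TPM in WT and 50.7 and 56.9 TPM in Kdm3b+/- mice. The ratio of this sum to Kdm3b, writer over eraser, was 5.83 and 5.97 in WT and 6.11 and 7.20 in Kdm3b+/- mice. It was higher in both mutants, but the step from the higher WT to the lower mutant was small beside the spread of the mutants.

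Among the trimethylating enzymes, Setdb2 showed the largest difference of the 10 genes, and it was not past the threshold. SETDB2 is a SET domain protein related to SETDB1. Setdb2 (gene 239122, chr14:59402009-59440880, minus strand) had 7.50 and 5.22 TPM in the WT mice and 5.06 and 4.01 TPM in the Kdm3b+/- mice. WT mouse 1 stood highest, and the groups were separated only by the narrow gap between WT mouse 2 and Kdm3b+/- mouse 1. The mean was 6.36 ± 1.61 TPM in WT and 4.54 ± 0.743 TPM in Kdm3b+/- mice (SD, n = 2 each). The log2 fold change was -0.40 (SE 0.21; 95% interval -0.87 to 0.07), with an adjusted p of 0.352 by limma. It was -0.17 without WT mouse 1, the library with the most Purkinje cell marker RNA, and -0.62 without WT mouse 2. Whether Purkinje cell RNA has a part in the value was not tested. The mean read depth over Setdb2 exons was 12.3 to 16.6.

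Setdb1, the main partner of TRIM28 (gene 84505, chr3:95323525-95357202, minus strand), had 12.9 and 16.9 TPM in the WT mice and 12.7 and 13.8 TPM in the Kdm3b+/- mice. These groups overlapped, and the difference was -0.14 (SE 0.18) on the log2 scale with an adjusted p of 0.704 by limma. Suv39h1 (gene 20937, chrX:8061171-8074760, minus strand) had 24.5 and 32.7 TPM in the WT mice and 24.1 and 23.2 TPM in the Kdm3b+/- mice. Here WT mouse 2 stood well above the other three libraries, which were alike. Kdm3b+/- over WT gave a log2 fold change of -0.25 (SE 0.17; 95% interval -0.63 to 0.14), with an adjusted p of 0.477 by limma. Suv39h2 (gene 64707, chr2:3455815-3474986, minus strand) was the scarcest of the 10, at 2.85 and 2.61 TPM in the WT mice and 2.51 and 1.89 TPM in the Kdm3b+/- mice. Both mutants were lower, by a log2 fold change of -0.23 (SE 0.19; 95% interval -0.66 to 0.21) and an adjusted p of 0.567 by limma. Without Kdm3b+/- mouse 2, the lowest library, it was -0.087. Its exons were covered at a mean depth of 5.59 to 6.58, the least of the 10 genes.

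Trim28 (gene 21849, chr7:13024152-13031032, plus strand) encodes KAP1, the scaffold between KRAB zinc finger proteins, SETDB1 and HP1. It had 96.3 and 127 TPM in the WT mice and 89.4 and 95.8 TPM in the Kdm3b+/- mice. The groups did not overlap, but WT mouse 1 and Kdm3b+/- mouse 2 were nearly equal and only WT mouse 2 stood apart. Kdm3b+/- over WT gave a log2 fold change of -0.26 (SE 0.16; 95% interval -0.62 to 0.11), with an adjusted p of 0.435 by limma.

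WT mouse 2 was the highest library for 5 of the 10 genes, Ehmt1, Ehmt2, Setdb1, Suv39h1 and Trim28. Without that mouse their log2 fold changes were -0.01, 0.04, 0.04, -0.05 and -0.06 in the same order, so the size of the differences depended on it. These genes were picked as those where that mouse was highest, so its removal could only raise the values. After a correction for transcript length and GC content in each library, the same 5 genes stood at 0.02, 0.11, 0.02, -0.09 and -0.0049. Setdb2 kept -0.34 and Suv39h2 -0.14 under that correction. WT mouse 1 was the highest for 3 others, Setdb2, Suv39h2 and Cbx3. For 7 of the 10 genes, the gap between the 2 WT mice was larger than the gap between the genotype means.

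**Figure D2:**
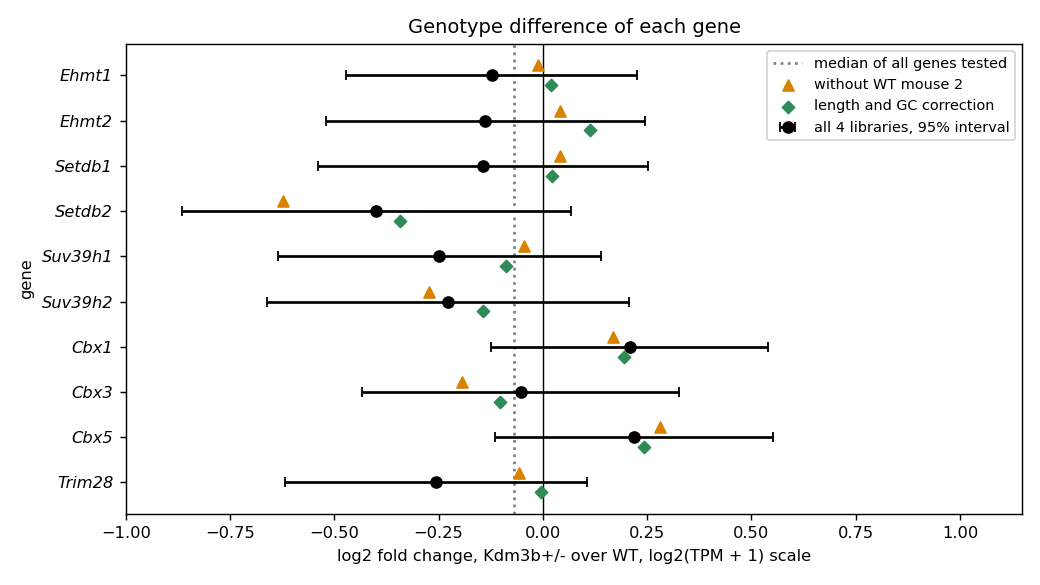
Log2 fold change of Kdm3b+/- over WT on the log2(TPM + 1) scale for each gene, with its 95% interval (black), the value without WT mouse 2 (triangles), the value after the length and GC correction (diamonds) and the median of all genes tested (dotted line). The triangles of Ehmt1, Ehmt2, Setdb1, Suv39h1 and Trim28 lie close to 0, and Cbx1 and Cbx5 lie above 0 in all 3 values.

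Among the HP1 readers, Cbx1 and Cbx5 were higher in both mutants, while the groups of Cbx3 overlapped. Cbx1 (gene 12412, chr11:96789136-96808640, plus strand) encodes HP1 beta. It had 34.4 and 32.5 TPM in the WT mice and 41.7 and 36.1 TPM in the Kdm3b+/- mice. Both mutants were higher, by a fold of 1.16, and the log2 fold change was 0.21 (SE 0.15; 95% interval -0.12 to 0.54) with an adjusted p of 0.490 by limma. Without Kdm3b+/- mouse 1, the highest library, the value was 0.11. Cbx5 (gene 12419, chr15:103191546-103239816, minus strand) encodes HP1 alpha. It had 19.9 and 21.7 TPM in the WT mice and 25.1 and 23.6 TPM in the Kdm3b+/- mice. Both mutants were again higher, by a fold of 1.17, and the log2 fold change was 0.22 (SE 0.15; 95% interval -0.11 to 0.55) with an adjusted p of 0.468 by limma. Cbx3 (gene 12417, chr6:51470616-51483704, plus strand) encodes HP1 gamma, which is also found along active genes. It had 44.8 and 36.7 TPM in the WT mice and 35.0 and 43.4 TPM in the Kdm3b+/- mice. The difference was small beside the spread of either genotype, with a log2 fold change of -0.05 (SE 0.17; 95% interval -0.43 to 0.33) and an adjusted p of 0.895 by limma.

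Summed over the 3 genes, HP1 transcripts stood at 99.0 and 90.9 TPM in WT and at 102 and 103 TPM in Kdm3b+/- mice. The 6 writers summed to 101 and 123 TPM in WT and to 95.1 and 99.8 TPM in Kdm3b+/- mice. The ratio of readers to writers was therefore 0.983 and 0.738 in WT and 1.07 and 1.03 in Kdm3b+/- mice. Both mutants were higher, and the distance between the 2 WT mice was larger than that from WT mouse 1 to either mutant. An exact two-sided permutation test of 2 against 2 mice cannot give a p below 0.333. The make-up of the HP1 pool did not separate the genotypes. Cbx1 held 34.7% and 35.7% of it in WT and 40.9% and 35.0% in Kdm3b+/- mice. Cbx3 held 45.2% and 40.4% in WT and 34.4% and 42.1% in Kdm3b+/- mice. Cbx5 held 20.1% and 23.9% in WT and 24.6% and 22.9% in Kdm3b+/- mice. Each share overlapped between the genotypes.

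**Figure D3:**
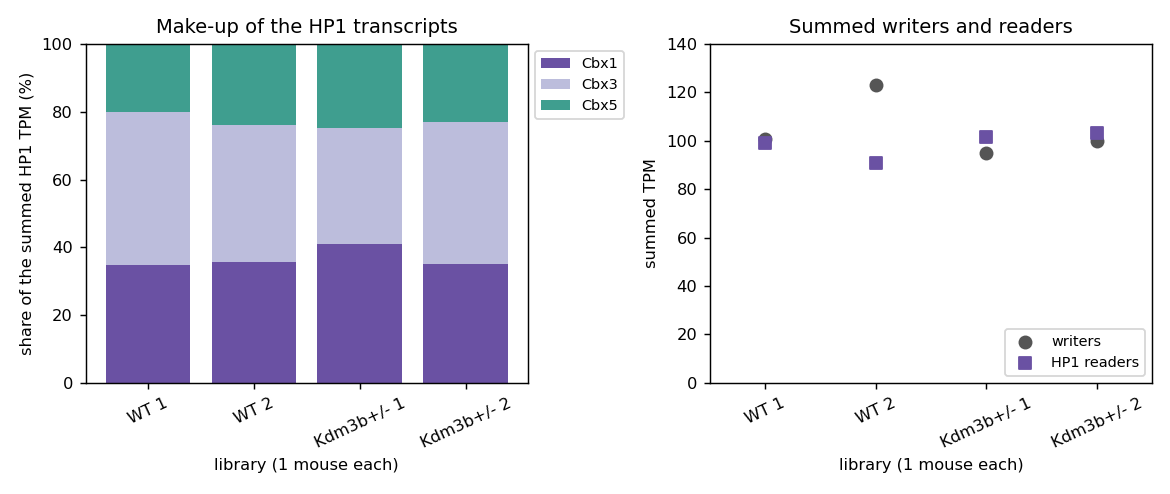
Left, share of each HP1 gene in the summed HP1 TPM of each library, in percent. Right, summed TPM of the 6 writers (circles) and the 3 HP1 readers (squares) in each library. The shares overlap between genotypes, and WT mouse 2 has the highest writer sum (123 TPM) and the lowest reader sum (90.9 TPM).

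The promoters of Cbx1 and Cbx5, the readers that were higher in both mutants, and of Setdb2, with the largest difference, are shown as the start regions of the genes that these differences concern. Each holds 250 bases before and 50 after a RefSeq (GRCm38.p6) start of the gene, written along its strand. The RefSeq start nearest to the start in the deposited data was taken. For Cbx1 and Cbx5 this is not the outermost RefSeq start. Capitals mark matches on either strand to the motifs searched. The windows are chr11:96788885-96789184 on the plus strand for Cbx1, chr15:103239803-103240102 on the minus strand for Cbx5 and chr14:59440831-59441130 on the minus strand for Setdb2.
Cbx1: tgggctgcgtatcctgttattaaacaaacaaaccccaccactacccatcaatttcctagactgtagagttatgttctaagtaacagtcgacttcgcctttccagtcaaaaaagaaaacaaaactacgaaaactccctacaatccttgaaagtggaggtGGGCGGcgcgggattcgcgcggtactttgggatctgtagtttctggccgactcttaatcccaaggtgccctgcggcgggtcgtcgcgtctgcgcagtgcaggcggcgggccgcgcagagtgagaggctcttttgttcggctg
Cbx5: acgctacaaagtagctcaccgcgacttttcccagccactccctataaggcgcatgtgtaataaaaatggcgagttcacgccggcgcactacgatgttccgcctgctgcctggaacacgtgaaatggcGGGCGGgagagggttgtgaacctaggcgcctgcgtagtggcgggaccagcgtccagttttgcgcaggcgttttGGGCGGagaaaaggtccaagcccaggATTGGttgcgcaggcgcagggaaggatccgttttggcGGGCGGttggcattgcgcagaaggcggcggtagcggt
Setdb2: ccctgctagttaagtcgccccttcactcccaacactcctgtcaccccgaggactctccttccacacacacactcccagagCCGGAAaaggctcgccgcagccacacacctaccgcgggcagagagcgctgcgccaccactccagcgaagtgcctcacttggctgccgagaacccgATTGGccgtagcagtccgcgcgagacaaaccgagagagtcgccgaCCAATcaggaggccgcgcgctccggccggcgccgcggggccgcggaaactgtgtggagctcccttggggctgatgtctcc

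All 3 are rich in CG dinucleotides, with 22 in Cbx1, 29 in Cbx5 and 29 in Setdb2. The median was 7 over 32851 RefSeq promoters of the same length. All 10 genes lay above that median, from 15 in Setdb1 and Suv39h1 to 34 in Ehmt1 and Cbx3, so this is not particular to the 3 shown. The motifs searched were the GC box (GGGCGG), the CCAAT box (CCAAT), the TATA box (TATAAA), the ETS core (CCGGAA), the CRE core (TGACG), the NRF1 core (GCGCATGCG) and the YY1 core (AAGATGG), each on both strands. They occur in 35.7%, 37.4%, 13.6%, 14.9%, 20.8%, 1.75% and 6.34% of all promoters in that order. The Cbx1 window holds 1 GC box, the Cbx5 window 3 GC boxes and 1 CCAAT box, and the Setdb2 window 2 CCAAT boxes and 1 ETS core. None of the 10 promoters holds the TATA box letters. These are matches of letters only and no factor was measured at them.

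For Setdb2, Cbx3 and Cbx5, another tested gene starts within 1000 bases on the opposite strand in the coordinates of the tables, as for 12.2% of all genes tested. Cab39l, for a scaffold protein of the LKB1 kinase, starts 101 bases from Setdb2, inside the Setdb2 window shown above. The other neighbours start outside the windows shown. It had 38.8 and 43.0 TPM in the WT mice and 32.7 and 34.0 TPM in the Kdm3b+/- mice. Like Setdb2 it was lower in both mutants, by a log2 fold change of -0.28 (SE 0.14) with an adjusted p of 0.344 by limma. Hnrnpa1, for an RNA-binding protein of splicing, starts 581 bases from Cbx5. It had 21.6 and 19.2 TPM in the WT mice and 32.4 and 35.1 TPM in the Kdm3b+/- mice. Like Cbx5 it was higher in both mutants, by a log2 fold change of 0.70 (SE 0.15) with an adjusted p of 0.105 by limma. A second gene model at that locus, Gm10052, was at 106 and 96.6 TPM in WT and 115 and 145 TPM in Kdm3b+/- mice. Reads could be split between it and Hnrnpa1, so the Hnrnpa1 level is uncertain. Hnrnpa2b1, of the same family, starts 722 bases from Cbx3 and had 422 and 397 TPM in the WT mice and 463 and 492 TPM in the Kdm3b+/- mice. It was higher in both mutants, while the groups of Cbx3 overlapped. None of these neighbours was DEX.

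Some of the 10 genes share sequence or position with other genes, which could add to or take from their values. Whether the counting used strand is not given in the sources used here. Suv39h2 overlaps Dclre1c over 5302 bases, Cbx1 overlaps Gm11517 over 2825 bases and Setdb1 overlaps Cers2 over 75 bases, each on the opposite strand. Dclre1c had 4.21 and 4.60 TPM in WT and 4.02 and 3.44 TPM in Kdm3b+/- mice, above Suv39h2 itself. Gm11517 had 2.65 to 3.58 TPM, far below Cbx1. Gm45935, which spans Setdb2 on its own strand, had 0.279 to 0.520 TPM. Of the 50-base words in their GENCODE transcripts, Cbx3 shared 28.9% with other genes, 8 of them Cbx3 pseudogenes, and Suv39h1 shared 20.5% with Gm14820. Setdb1 shared 9.37% with 3 other genes and Suv39h2 shared 4.28% with Dclre1c. The values of Cbx3, Suv39h1, Setdb1, Suv39h2 and Setdb2 are uncertain to that extent. No gene of the 10 shared such a word with another of them, so HP1 genes were not mixed with each other in this way.

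Transcripts for proteins that work with these enzymes and readers, listed as partners, went in both directions. The list also held other SET domain genes (Prdm2, Mecom, Prdm16, Setmar and Ash1l). Of 37 listed partner genes, 33 had a mean TPM of at least 1. Of these 33, 18 were higher and 15 lower in Kdm3b+/- mice, 0 were DEX, and 3 (Atf7ip, Zfp644 and Incenp) had an unadjusted p under 0.05 by limma. The median over the 33 was 0.07 on the log2 scale, beside -0.07 for all genes tested, of which 5402 were higher and 8250 lower. Both mutants lay above both WT mice for 7 genes and below for 6, where the shares over all genes tested were 19.2% and 32.0%, and an unadjusted p under 0.05 was found for 17.0% of all genes. Atf7ip2, the paralogue of Atf7ip, was listed at 0 in all 4 libraries. The length and GC correction turned some partners above 0, such as Cdyl (0.12) and Chd4 (0.12). Others, such as Incenp (-0.21), stayed below 0, so the split of directions depends on the processing.

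Atf7ip had the largest difference of the partners. ATF7IP is the cofactor that keeps SETDB1 stable in the nucleus. It had 14.1 and 18.3 TPM in the WT mice and 9.83 and 8.44 TPM in the Kdm3b+/- mice. Both mutants lay well below both WT mice, and the log2 fold change was -0.76 (SE 0.18; 95% interval -1.16 to -0.35). The adjusted p was 0.127 by limma, so it did not pass the threshold. With any 1 mouse left out, the value stayed between -0.93 and -0.58, and after the length and GC correction it was -0.69. Setdb1 itself, at -0.14, had overlapping groups.

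Chaf1a, a subunit of the chromatin assembly factor that binds HP1, had 7.60 and 8.08 TPM in the WT mice and 4.40 and 6.84 TPM in the Kdm3b+/- mice. Both mutants were lower, by -0.44 (SE 0.21) on the log2 scale, with an adjusted p of 0.311 by limma. This value ranged from -0.71 to -0.17 with 1 mouse left out, -0.17 being without Kdm3b+/- mouse 1, and was -0.25 after the length and GC correction. Zfp644, a zinc finger protein of the G9a and GLP complex, had 26.3 and 25.3 TPM in the WT mice and 42.3 and 31.0 TPM in the Kdm3b+/- mice. It was higher in both mutants, which differed between themselves, with a log2 fold change of 0.47 (SE 0.17) and an adjusted p of 0.238 by limma. With 1 mouse left out, this value ranged from 0.25, without Kdm3b+/- mouse 1, to 0.69. Smchd1, which binds the HP1 partner LRIF1, had 8.02 and 8.77 TPM in the WT mice and 11.4 and 8.85 TPM in the Kdm3b+/- mice. The gap between WT mouse 2 and Kdm3b+/- mouse 2 was small, and the log2 fold change was 0.24 (SE 0.18) with an adjusted p of 0.514 by limma. It was 0.07 without Kdm3b+/- mouse 1.

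**Figure D4:**
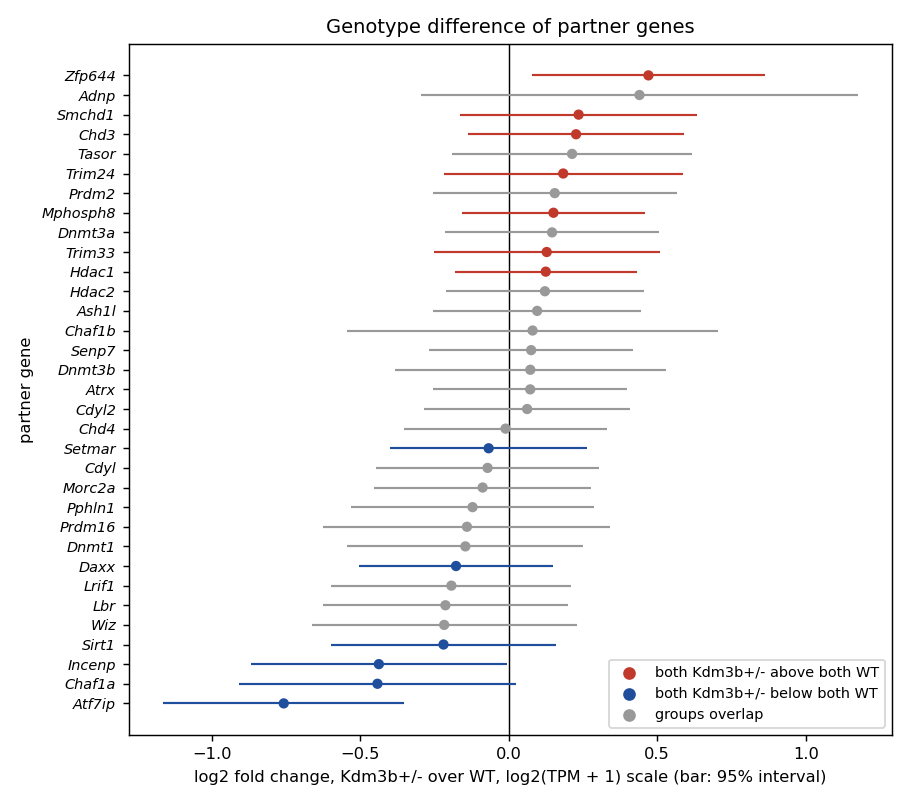
Log2 fold change of Kdm3b+/- over WT on the log2(TPM + 1) scale, with its 95% interval, for the 33 partner genes tested, coloured by whether the 2 mice of each genotype overlap. Atf7ip lies lowest at -0.76 and Zfp644 highest at 0.47.

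The erasers of the same mark were also examined. Of 12 H3K9 demethylase genes listed, Kdm3b included, 11 were tested, 2 were higher and 9 lower, and 0 were DEX by limma, while 2 had an unadjusted p under 0.05. Their median log2 fold change was -0.23, beside -0.07 for all genes tested, of which 5402 were higher and 8250 lower. This median was not taken after the length and GC correction, under which Kdm1a went from -0.23 to -0.06 and Phf2 from -0.15 to 0.05. Jmjd1c stood at 0.18 and Hr at -0.69 under it. Over all genes tested, 17.0% had an unadjusted p under 0.05. Both mutants lay below both WT mice for 8 of the erasers, beside 32.0% of all genes tested, and their summed TPM was 224 and 273 in WT and 192 and 196 in Kdm3b+/- mice. Whether erasers and writers differ in this was not tested.

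Markers of dividing cells were read beside the 10 genes. Their sum, mostly Pcna, was 160 and 149 TPM in WT and 163 and 155 TPM in Kdm3b+/- mice, and 0 of the 5 tested had an unadjusted p under 0.05 by limma, with 0 DEX. Of these 5, 2 were higher and 3 lower in Kdm3b+/- mice, beside 5402 higher and 8250 lower among all genes tested. Mcm5, of the replicative helicase, had 15.6 and 20.1 TPM in WT and 14.7 and 14.2 TPM in Kdm3b+/- mice, and was lower in both mutants. Mki67, too scarce to be tested, had 0.0407 and 0.129 TPM in WT and 0.269 and 0.313 TPM in Kdm3b+/- mice, and was higher in both. The part of dividing cells in the values of the 10 genes was not tested.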

How the data were processed

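GCE tissue of 2 WT and 2 Kdm3b+/- mice was sequenced, with 1 library per mouse, and groups were taken from the genotype in the labels. The authors trimmed low-quality bases, aligned reads with STAR and estimated gene abundance with StringTie; versions, genome build and annotation are not given in the sources used here. The authors deposited a coverage signal per gene (mean read depth over exons, not normalized), FPKM (scaled to gene length and mapped fragments) and TPM (scaled to gene length and to the same total in every library). Entries that shared an identifier (220 identifiers) were summed. Starts of 90.5% of identifiers lay within 1 kb of RefSeq GRCm38.p6, from which symbols, for 24462 of 24532 identifiers, and promoters, for all 10 genes, were taken.

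The 13652 genes that reached a mean TPM of 1 were tested on log2(TPM + 1), a scale that understates changes of low genes, with limma 3.58.1 (eBayes with trend) in R 4.3.3 with genotype as the term and Benjamini-Hochberg adjustment over all genes tested. Counts were not used, so no count model was fitted. Aligned bases came from the ratio of coverage to FPKM. Length and GC content were known for 94.5% of genes tested, and their correction used a loess span of 0.5 in each library. Robust fits used statmod 1.5.0, and tables and figures Python 3.11.15, NumPy 2.4.6, pandas 2.3.3 and Matplotlib 3.10.9. The fit was tested on simulated data.

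The members and lists were chosen with earlier results of these data known. All 10 members were named, and of the partners the 2 largest increases and 2 largest decreases among genes whose groups did not overlap, besides any DEX gene of a list. Incenp, the single erasers, Polycomb and marker genes other than DEX genes, and the divergent neighbours were named after their values were seen. Alternatives were the pseudocount (0.1), FPKM, the filter on low values, scaling, the handling of shared identifiers, the variance model, the thresholds, a replicate block, the length and GC correction, and leaving out each mouse.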

Additional observations from a re-analysis of the deposited data

How the results depend on the processing

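DEX stayed at 0 of the 10 genes under every alternative run, with at most 2 at an unadjusted p under 0.05 (without WT mouse 1), and 126 of the 139 values of single genes under an alternative kept their direction; 13 reversed. Setdb2, Suv39h1, Suv39h2, Trim28, Cbx1 and Cbx5 kept theirs throughout. The length and GC correction turned Ehmt1 to 0.021, Ehmt2 to 0.11 and Setdb1 to 0.022, with or without the replicate block. Cbx3 was 0.0097 with FPKM, 0.018 with median-ratio scaling and 0.057 with quantile normalization. With 1 mouse left out, the values ranged from -0.32 to 0.042 for Ehmt2, -0.33 to 0.041 for Setdb1 and -0.21 to 0.10 for Cbx3. The median over the 10 genes was -0.14, and it was -0.070 with median-ratio scaling, -0.074 with FPKM and -0.016 with quantile normalization. It was 0.0079 with the length and GC correction, with or without the replicate block, and -0.21 to -0.029 with 1 mouse left out. Over all genes, 63 were DEX (16 higher, 47 lower), against 61 (23 higher, 38 lower) with median-ratio scaling, 38 with FPKM, 1 without a filter on low TPM, 37 with eBayes without trend, 33 at a log2 fold change over 1.2, and 21 to 188 with 1 mouse left out (28 without WT mouse 2, 21 without WT mouse 1, 121 without Kdm3b+/- mouse 1 and 188 without Kdm3b+/- mouse 2). Same-numbered mice are different animals. Whether they share more than a number is not given in the sources used here. Their deviations correlated at 0.121, and the replicate block gave 600 DEX genes (173 higher, 427 lower) and 1 among the partners, Atf7ip, at an adjusted p of 0.0353 by limma. It also called Hr (0.00963), Cbx7 (0.0144) and Ezh1 (0.0167), all lower. With the length and GC correction the correlation was 0.0174, and the replicate block then gave 91 DEX genes and 0 among the partners. The cause of these changes was not tested. A minimum mean TPM of 5 leaves out Suv39h2. Depth limits Suv39h2 and Setdb2 most, and with 2 mice in each group limma borrows the spread from other genes.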

Other observations

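The Polycomb genes, whose CBX proteins carry a chromodomain related to that of HP1 but bind methylated H3K27, were read beside the HP1 genes. Of 9 tested, 3 were higher and 6 lower in Kdm3b+/- mice, 0 were DEX by limma and 5 had an unadjusted p under 0.05, all lower, and the median over the 9 was -0.42 on the log2 scale. Over all genes tested, 17.0% had an unadjusted p under 0.05 and 0.461% were DEX. Their median log2 fold change was -0.07, with 5402 genes higher and 8250 lower. Cbx7, a subunit of Polycomb repressive complexes, had 112 and 142 TPM in the WT mice and 71.8 and 81.5 TPM in the Kdm3b+/- mice, at -0.71 on the log2 scale with an adjusted p of 0.109 by limma. Ezh1, the H3K27 methyltransferase of non-dividing cells, had 76.7 and 93.5 TPM in the WT mice and 49.9 and 52.0 TPM in the Kdm3b+/- mice, at -0.72 with an adjusted p of 0.0997 by limma. In both genes the 2 genotypes lay well apart. After the length and GC correction Cbx7 stood at -0.46 and Ezh1 at -0.53. Ezh2 and Eed were at 0.09 and 0.12, with adjusted p-values far from the threshold.

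Among the erasers, Hr, a JmjC protein related to KDM3B, had 32.0 and 44.2 TPM in the WT mice and 18.8 and 20.9 TPM in the Kdm3b+/- mice. Hr was lower in both mutants by a log2 fold change of -0.89, with an adjusted p of 0.0977 by limma. The value lay between -1.12 and -0.66 with any 1 mouse left out, and was -0.69 after the length and GC correction. Kdm4b, a demethylase of trimethylated H3K9, was at -0.55, with an adjusted p of 0.245 by limma. It ranged from -0.87 to -0.22 with 1 mouse left out, -0.22 being without WT mouse 2, and was -0.30 after the length and GC correction.

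Of the other cell types, 1 marker gene was DEX and higher, and 1 was DEX and lower. Whether these calls hold under the alternatives was not examined. Aqp4, the water channel of astrocytes, had 59.2 and 82.3 TPM in WT and 150 and 152 TPM in Kdm3b+/- mice, with an adjusted p of 0.0329 by limma. In the same list of 7 astrocyte and Bergmann glia markers, 3 were lower in both mutants, Gdf10 (log2 fold change -1.03), Aldh1l1 (-0.69) and Slc1a3 (-0.47). Another marker, Hopx (0.53), was higher in both, and none of them was DEX. Among all genes tested, 32.0% were lower in both mutants, 19.2% were higher in both and 0.461% were DEX. Mobp, a myelin protein gene of oligodendrocytes, had 925 and 893 TPM in WT and 471 and 482 TPM in Kdm3b+/- mice, with an adjusted p of 0.0133 by limma. The summed markers of astrocytes and Bergmann glia, oligodendrocytes, microglia (85.4 to 105 TPM), endothelial cells (101 to 132 TPM), red cells (1142 to 1928 TPM), choroid plexus (1.22 to 3.72 TPM) and molecular layer interneurons (98.8 to 315 TPM) overlapped between genotypes. Hba-a1, Hba-a2 and Hbb-bt of the red cells were nevertheless higher in both mutants, and the overlap of the red cell sums rests on Hbb-bs, at 506 and 8.08 TPM in WT and 0.00768 and 0.142 TPM in Kdm3b+/- mice. None of these markers was at 0 in every library.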
